A study of Mus musculus with 8 samples.

Results

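*Aim2* and 7 further inflammasome genes (*Nlrp3*, *Ifi203*, *Pycard*, *Casp1*, *Gsdmd*, *Il18* and *Il1b*) were followed in whole brains of WT mouse embryos at E14.5, 8 genes of the 33971 in the table. The genes were picked by name, with earlier results of the same diet comparison known, so their differences between the diets are given as a description and not as a test. WT females were mated with WT males and, from the day of mating, ate choline-deficient (CDD) or normal chow (ND), and poly-A RNA was sequenced in bulk from 4 brains per diet. Both groups share the WT genotype and the stage, and they differ, as far as the labels say, in the mother's diet alone. The numbers of dams and litters are not given, so errors describe the spread between these 8 brains, which may include littermates. In bulk RNA, fewer cells of a type and less RNA per cell cannot be told apart.

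An inflammasome is a protein complex assembled in the cytosol when a sensor meets a danger signal. AIM2 binds double-stranded DNA and NLRP3 responds to many kinds of cell stress, and both sensors recruit the adaptor ASC, which is encoded by *Pycard*. ASC brings in caspase-1, which cuts the precursors of IL-1β and IL-18 into active cytokines and frees the pore-forming end of gasdermin D, so that the cell may die by pyroptosis. In the brain this machinery is best known from microglia, the resident macrophages, and *Aim2* has also been studied in developing neural tissue.

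The libraries held 32706627 to 43121170 counts on genes in the CDD group and 31770217 to 34399295 in the ND group. Of the 33971 genes, 19367 had enough counts for a test, and 7 of the 8 inflammasome genes were among them. *Il1b* was not. Some libraries stood apart in marker genes. CDD replicate 2 held 92.1 CPM (counts scaled to a library of 1000000) summed over 8 genes of the caudal hindbrain and spinal cord, against 0.906 to 3.20 CPM in the other CDD brains and 1.39 to 2.78 CPM in ND brains. ND replicate 3 held 1827 CPM of 9 erythroid markers, against 508 to 966 CPM in the other ND and 536 to 948 CPM in the CDD brains. Smaller gaps were found for endothelial markers in CDD replicate 3 (245 CPM against 232 to 234 in the other CDD brains) and for lymphoid and NK markers in ND replicate 4 (1.13 CPM against 0.665 to 0.702 in the other ND brains). Neuronal markers, which check the labelled tissue, summed to 5433 to 6091 CPM in CDD and to 5518 to 5713 CPM in ND brains. Across all tested genes the median log2 fold change of CDD over ND was -0.0038.

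*Aim2* was higher in CDD brains, by 1.71-fold, and none of the other 6 tested inflammasome genes passed the threshold. All 6 of those had a log2 fold change below 0, from -0.05 for *Nlrp3* to -0.47 for *Casp1*. In edgeR's quasi-likelihood test, with Benjamini-Hochberg adjustment over all 19367 genes and an adjusted p-value under 0.05, 1 of the 7 tested inflammasome genes was called, where 8.83% of all tested genes were called. The genes were chosen with this comparison in view, so nothing is read from that count.

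*Aim2* (ENSMUSG00000037860, chromosome 1, 173178445 to 173293606, plus strand, in the authors' coordinates, whose build is not named) had 280, 270, 362 and 248 counts in CDD replicates 1 to 4. It had 168, 167, 142 and 158 counts in the ND replicates. All CDD brains lay above all ND brains, before and after scaling for library size. Scaled, *Aim2* was at 8.45, 7.82, 8.41 and 7.48 CPM in the CDD brains, a mean of 8.04 ± 0.472 CPM (SD, n = 4). In the ND brains it was at 4.92, 5.22, 4.11 and 4.58 CPM, a mean of 4.70 ± 0.478 CPM (SD, n = 4). The lowest CDD brain thus stood above the highest ND brain by several times the SD of either group. The log2 fold change was 0.77 (standard error, SE, 0.10, 95% confidence interval 0.56 to 0.99), or 1.71-fold (1.47 to 1.99). Diets without any overlap were found with CDD above ND for 7.65% and with CDD below ND for 7.39% of all tested genes. *Aim2* ranked 13 by p-value among all tested genes and 24 by log2 fold change among the 822 genes called higher. Without CDD replicate 2, the library with the caudal genes, the log2 fold change of *Aim2* was 0.79, without ND replicate 3 it was 0.71, without CDD replicate 3 it was 0.75 and without ND replicate 4 it was 0.76.

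**Figure D1:**
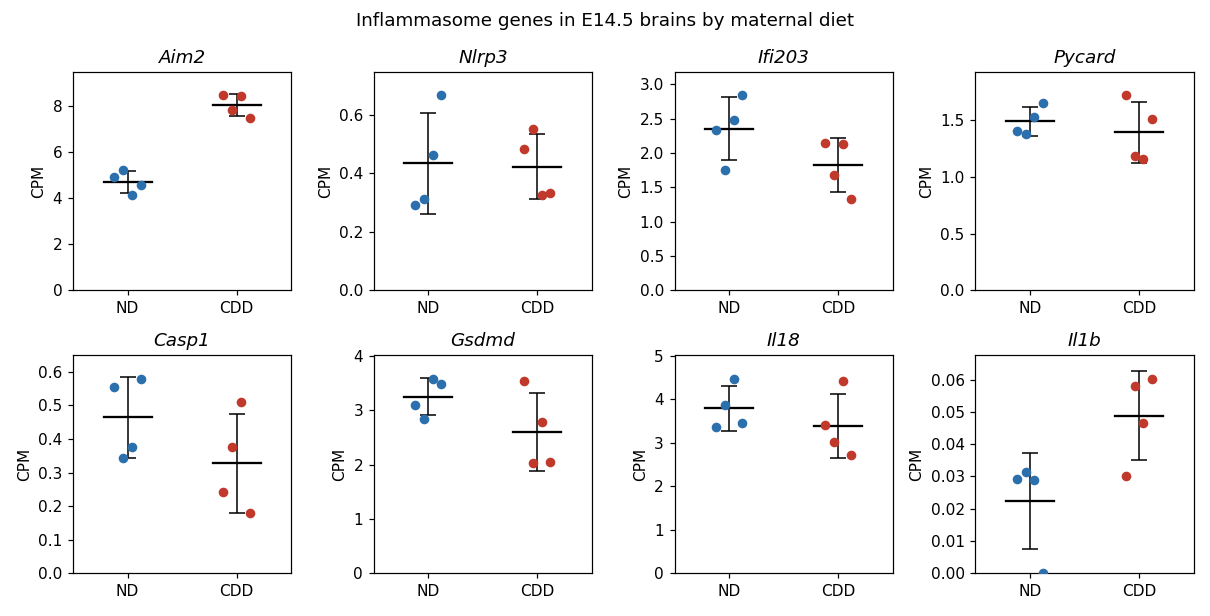
Expression in CPM (y axis, from 0) of the 8 inflammasome genes in ND (blue) and CDD (red) brains, 1 point per brain, with the mean and SD of the 4 brains in black. *Aim2* lies between 7.48 and 8.45 CPM in CDD and between 4.11 and 5.22 CPM in ND brains, and in the other 7 genes the diets overlap.

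The gene model of *Aim2* is long for its product. In the GENCODE M21 annotation of GRCm38, *Aim2* spans 115162 bases (chromosome 1, 173350879 to 173466040) with 7 transcripts, and its exons merge to 3501 bases, the length the authors also list. The coding part amounts to 1062 bases and begins 104475 bases after the start of the gene, at position 173455354, and 1077 bases of exon lie before it. A single transcript runs over the whole span, with 12 exons, 7 of them before the coding start. The deposited counts are per gene, so counts from the early exons and from the coding exons cannot be told apart. The first part of the span lies opposite *Cadm3*, a cell adhesion gene on the other strand, over 16817 bases in which the exons of the 2 genes share 0 bases. *Cadm3* held 84154 counts over the 8 brains against 1795 for *Aim2*, and its log2 fold change was -0.04 (SE 0.05, not past the threshold). Per 1000 counts of *Cadm3* in the same library, *Aim2* had 24.4 to 30.5 counts in CDD and 13.4 to 17.4 in ND brains. *Cadm3* varied little between the brains (277 to 321 CPM), so this ratio repeats the difference in *Aim2* and is not a separate result. Whether the counting used strand is not given in the sources used here.

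Promoter windows of 250 bases before to 50 after the RefSeq start (GRCm38.p6) were found for 7 of the 8 genes, 9 windows in all. *Gsdmd* was not matched. Those of *Aim2*, *Pycard* and *Ifi203* are shown, 5′ to 3′ on the strand of the gene, because they hold the motif matches and because they belong to a sensor that was higher, its adaptor, and a gene of its family on the same chromosome. The RefSeq start of *Aim2* lies inside the GENCODE span and not at its first base. Capitals mark, in *Aim2*, GAGGAAGT, a core of the motif of PU.1 (a factor of myeloid cells), in *Pycard* its reverse complement ACTTCCTC, and in *Ifi203* a pair of GAAA repeats set 2 bases apart, the core of the interferon-stimulated response element (ISRE).

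Aim2, chr1:173420354-173420653, plus strand: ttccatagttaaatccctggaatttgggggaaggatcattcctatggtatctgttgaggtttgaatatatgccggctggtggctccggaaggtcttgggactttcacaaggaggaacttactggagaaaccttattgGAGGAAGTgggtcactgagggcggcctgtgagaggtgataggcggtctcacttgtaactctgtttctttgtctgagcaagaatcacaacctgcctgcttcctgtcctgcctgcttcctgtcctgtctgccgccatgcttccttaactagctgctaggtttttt
Pycard, chr7:127993818-127994117, minus strand: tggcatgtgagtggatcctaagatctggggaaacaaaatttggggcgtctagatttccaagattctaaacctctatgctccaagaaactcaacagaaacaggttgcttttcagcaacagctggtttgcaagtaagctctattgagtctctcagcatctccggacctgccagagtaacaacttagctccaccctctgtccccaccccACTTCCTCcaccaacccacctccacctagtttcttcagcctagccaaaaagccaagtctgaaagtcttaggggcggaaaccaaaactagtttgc
Ifi203, chr1:173942443-173942742, minus strand: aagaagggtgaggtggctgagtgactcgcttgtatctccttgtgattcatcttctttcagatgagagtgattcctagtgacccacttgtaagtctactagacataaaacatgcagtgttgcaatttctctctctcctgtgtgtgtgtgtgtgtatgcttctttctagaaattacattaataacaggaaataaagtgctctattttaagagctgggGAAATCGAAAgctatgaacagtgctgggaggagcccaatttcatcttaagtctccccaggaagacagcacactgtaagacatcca

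The PU.1 core began 113 bases before the start in *Aim2* and 44 bases before it, on the opposite strand, in *Pycard*. It was in 2 of the 9 windows and, on either strand, in 3.20% of 32851 promoters. The ISRE core was in 1 of the 9 windows, 35 bases before one of the listed starts of *Ifi203*, and in 3.44% of all promoters. The kappa B motif, the third searched, was in 0 of the 9 windows and in 0.411% of all promoters. These are matches of letters, not binding sites.

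Neither *Nlrp3* nor *Ifi203* was called. *Nlrp3* (ENSMUSG00000032691, chromosome 11, 59432394 to 59457782, plus strand), the sensor of cell stress, had 16, 19, 14 and 11 counts in the CDD and 10, 10, 16 and 23 counts in the ND brains. The diets overlapped, with the highest brain in the ND group, and the log2 fold change was -0.05 (SE 0.35, 95% confidence interval -0.78 to 0.67). Its sign turned when CDD replicate 3 (0.07), CDD replicate 4 (0.04) or ND replicate 4 (0.23) was left out. *Ifi203* (ENSMUSG00000039997, chromosome 1, 173747973 to 173770238, minus strand), a nuclear protein gene of the PYHIN family to which *Aim2* belongs, had 71, 58, 92 and 44 counts in CDD and 80, 56, 86 and 98 in ND brains. It overlapped between the diets at 1.82 ± 0.395 CPM under CDD (SD, n = 4) and 2.36 ± 0.454 CPM under ND (SD, n = 4), with a log2 fold change of -0.37 (SE 0.19, 95% confidence interval -0.76 to 0.03). The PYHIN family holds near-identical copies, so counts assigned to *Ifi203* and to its neighbours are uncertain.

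The adaptor and the protease downstream of both sensors were low throughout. *Pycard* (ENSMUSG00000030793, chromosome 7, 127588880 to 127593039, minus strand), which encodes ASC, had 57, 41, 50 and 50 counts in CDD and 48, 44, 53 and 57 in ND brains. The diets overlapped, at 1.40 ± 0.269 CPM under CDD (SD, n = 4) and 1.49 ± 0.127 CPM under ND (SD, n = 4), with a log2 fold change of -0.10 (95% confidence interval -0.50 to 0.29). *Casp1* (ENSMUSG00000025888, chromosome 9, 5298508 to 5307290, plus strand), the caspase that cuts the cytokine precursors, had 8, 13, 22 and 6 counts in CDD brains. It had 19, 11, 13 and 20 counts in ND brains. CDD replicate 3, the deepest library, held the highest count and CDD replicate 4 the lowest of all 8 brains. Scaled, ND replicates 4 and 1 were highest (0.580 and 0.556 CPM), above CDD replicate 3 (0.511 CPM), and CDD replicate 4 stayed lowest (0.181 CPM). The interval of the log2 fold change was wide, -0.47 with a 95% confidence interval of -1.22 to 0.29. The intervals of *Pycard* and *Casp1* ended below the lower end of that of *Aim2* (0.56), and the interval of *Nlrp3* reached into it. This is a description, as *Aim2* was chosen with this comparison known. The fold changes of the genes were not tested against each other.

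The effectors and cytokines also overlapped between the diets. *Gsdmd* (ENSMUSG00000022575, chromosome 15, 75734176 to 75739257, plus strand), the gene of the pore-forming gasdermin D, had 117, 70, 120 and 68 counts in CDD and 106, 91, 124 and 120 in ND brains. At 3.53, 2.03, 2.79 and 2.05 CPM, 3 of the CDD brains lay below every ND brain (2.84 to 3.58 CPM) and CDD replicate 1 among them, with a log2 fold change of -0.32 (SE 0.17, 95% confidence interval -0.68 to 0.04). *Il18* (ENSMUSG00000039217, chromosome 9, 50466127 to 50493140, plus strand), which encodes the precursor of a cytokine activated by caspase-1, had 113, 104, 190 and 90 counts in CDD and 115, 124, 155 and 119 in ND brains. The log2 fold change of this gene was -0.15 (SE 0.15, 95% confidence interval -0.48 to 0.17), and CDD replicate 3, the deepest library, had its highest count. *Il1b* (ENSMUSG00000027398, chromosome 2, 129206490 to 129213059, minus strand), the precursor gene of IL-1β, had 1, 2, 2 and 2 counts in CDD and 1, 1, 1 and 0 in ND brains, 10 in all. Each brain was thus below 3 counts, the limit that a count of 0 allows (0.0697 to 0.0938 CPM in these libraries), and no fold is given. This limit covers counting error only. Summed over the 6 tested genes other than *Aim2*, expression was 8.11 to 11.5 CPM in CDD and 10.5 to 12.9 CPM in ND brains, which overlapped.

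Some of these genes share their position with a gene on the opposite strand. *Pycard* (400 counts over the 8 brains) overlaps *Gm45205* (87 counts), and *Il18* (1010 counts) overlaps *Bco2* (94 counts) and *Tex12* (10 counts). *Il1b* (10 counts) overlaps *Il1bos* (17 counts). These overlaps are of whole gene spans, and shared exon bases were not computed for these pairs. With the strand setting not stated either, whether counts of such pairs were mixed is not known.

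Levels were compared between the genes per gene length, as the authors' FPKM (fragments per kilobase of gene and per fixed number of counted fragments). The level itself did not enter the choice of genes. The mean of *Aim2* and the tests of its pairs do, however, pool the CDD brains, in which it was higher, with the ND brains. Over all 8 brains *Il18* was highest at 3.46 ± 0.599 FPKM (SD, n = 8), followed by *Aim2* at 1.81 ± 0.524, *Gsdmd* at 1.22 ± 0.258, *Pycard* at 0.378 ± 0.0522, *Ifi203* at 0.310 ± 0.0714, *Casp1* at 0.126 ± 0.0458, *Nlrp3* at 0.105 ± 0.0330 and *Il1b* at 0.0186 ± 0.0102 FPKM. In these FPKM the DNA sensor was thus at a level several times that of its adaptor and its caspase. The ratio depends on the gene lengths used. These merge the exons of all transcripts, to 3501 bases for *Aim2* (1062 coding) and to 3800 for *Pycard* (579 coding). Neighbours in this order were compared by an exact two-sided sign-flip permutation test over the 8 brains, adjusted over the 7 pairs, where the smallest p it can give is 0.00781 before adjustment. In 5 of the 7 pairs the levels differed, with an adjusted exact p = 0.0137 for *Il18* and *Aim2*, *Gsdmd* and *Pycard*, *Ifi203* and *Casp1*, and *Nlrp3* and *Il1b*, each higher in 8 of 8 brains. *Pycard* and *Ifi203* differed with an adjusted exact p = 0.0328 (higher in 7 of 8 brains), but with a brain left out this pair differed in 2 of 8 fits, without CDD replicate 3 or ND replicate 4, and not in the other 6 (largest adjusted exact p = 0.0656). *Aim2* and *Gsdmd* did not differ beyond their spread (mean difference 0.588 ± 0.691 FPKM (SD), adjusted exact p = 0.0911, *Aim2* higher in 6 of 8 brains), nor did *Casp1* and *Nlrp3* (mean difference 0.0205 ± 0.0513 FPKM (SD), adjusted exact p = 0.320, higher in 5 of 8). The place of *Casp1* depends on its length: the authors list 3136 bases, whereas the exons in GENCODE M21 merge to 1497 bases, and the listed lengths of the other 7 genes equal those in GENCODE. At 1497 bases, an alternative added after seeing the data, *Casp1* would stand at 0.263 FPKM, above *Nlrp3* in 8 of 8 brains (adjusted exact p = 0.0137) and no longer distinct from *Ifi203* (adjusted exact p = 0.0938, *Ifi203* higher in 5 of 8). Within each diet, given as a description, *Aim2* was above *Gsdmd* in 4 of 4 CDD brains, at a mean of 2.29 against 1.09 FPKM, and in 2 of 4 ND brains, at 1.34 against 1.36 FPKM.

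**Figure D2:**
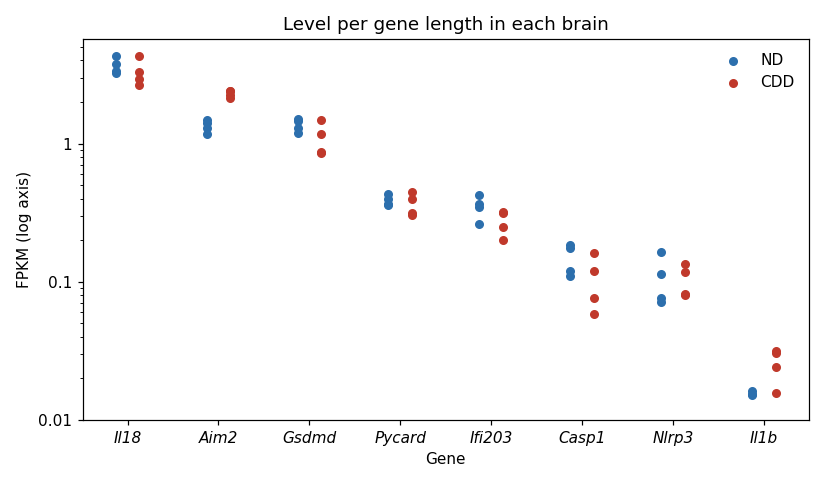
Level per gene length (FPKM, logarithmic y axis) of the 8 inflammasome genes, ordered by their mean over all brains, with 1 point per brain in ND (blue) and CDD (red). *Il18* and *Aim2* lead the order, *Il1b* is lowest, and the ND brain in which *Il1b* is at 0 cannot be drawn on this axis.

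In edgeR's test no other tested gene close to *Aim2* was called. Within 1 Mb of its start, 31 other genes begin, of which 14 were tested and 0 called, with a median log2 fold change of -0.0081. Of all tested genes 8.83% were called, so among only 14 genes nothing is read from a count of 0. At an unadjusted p-value under 0.05 in edgeR's test, 2 of the 14 differed, *Pigm* and *Mndal*. Over all tested genes 23.9% passed this unadjusted threshold, and nothing is read from 14 genes beside that share. DESeq2 called *Pigm*, 1 of the 9 genes it tested, and limma-voom called 0 of 14. *Cadm3* and *Ackr1*, a chemokine-binding receptor gene, lie closest, and their log2 fold changes were -0.04 and -0.20. Among the PYHIN genes further along the chromosome, the values were 0.16 for *Ifi207*, -0.44 for *Ifi204*, -0.62 for *Ifi203-ps* and -0.53 for *Mndal*. On the other side, *4933439K11Rik* was at 0.43, *Pigm* at 0.18, *Tagln2* at -0.11 and *Cfap45* at 0.10. None of these passed the threshold in edgeR's test.

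**Figure D3:**
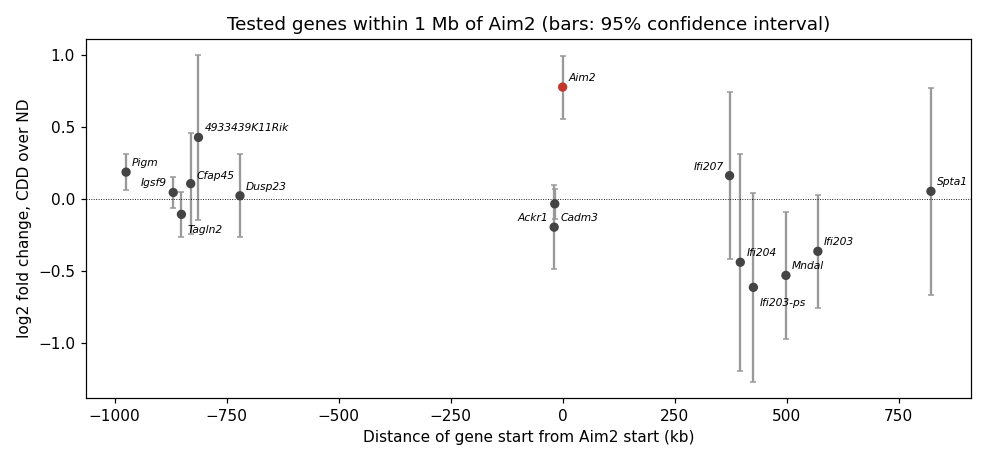
Log2 fold change of CDD over ND (y axis) of the tested genes that start within 1 Mb of *Aim2*, by the distance of their start from that of *Aim2* in kb (x axis), with 95% confidence intervals as bars. *Aim2* (red) is at 0.77 and is the single gene called by edgeR, and the PYHIN genes to its right lie between -0.62 and 0.16.

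The genes with the pattern most like that of *Aim2* over the 8 brains are named as a description. Each of the 5 was, like *Aim2*, higher in every CDD than in every ND brain, an outcome that the choice by likeness to *Aim2* favours. Likeness was measured as the root mean square difference of log2 CPM, each gene centred on its own mean. The 5 nearest of 19366 genes were *Mcidas*, a regulator of multiciliated cells (0.102), *Gm32687* (0.120), *Gm6560* (0.146), *Hmga2*, a chromatin protein gene of embryonic progenitors (0.150), and *Gm45137* (0.151). *Mcidas* stood at 1.82 ± 0.228 CPM under CDD (SD, n = 4) and 1.01 ± 0.168 CPM under ND (SD, n = 4). *Hmga2* stood at 13.3 ± 1.55 CPM (SD, n = 4) with CDD and 7.98 ± 0.747 CPM (SD, n = 4) with ND. In edgeR's test *Gm45137* was not called (adjusted p = 0.105), and the call of *Mcidas* was lost without ND replicate 3 (adjusted p = 0.0530).

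Wider lists of the pathway were then read against all tested genes. Of 112 genes listed, 103 were in the table and 72 were tested, and at an adjusted p-value under 0.05 edgeR called 1 higher and 3 lower under CDD, where 4.24% and 4.59% of all tested genes were called higher and lower. Their median log2 fold change was -0.04, with 26 genes above 0 and 46 below, and 13 differed at an unadjusted p-value under 0.05. Over all 19367 tested genes, 50.9% were below 0 and 4627 (23.9%) differed at an unadjusted p-value under 0.05, a larger share than in these lists. The number of calls changed with single brains: leaving out 1 brain at a time gave 0 to 7 calls, with 0 without ND replicate 3 or ND replicate 4, 1 without ND replicate 1, 2 without CDD replicate 2 or CDD replicate 4 and 7 without CDD replicate 3.

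Among 11 tested sensors and assembly factors, 1 was called lower, *Txnip*, which encodes a thioredoxin-binding protein that can engage NLRP3. It was at 50.6 ± 4.46 CPM under CDD (SD, n = 4) and 57.6 ± 1.38 CPM under ND (SD, n = 4), a log2 fold change of -0.19 (SE 0.06, edgeR's adjusted p = 0.0477). The diets did not overlap, but the call held in 2 of 8 fits that left out a brain and was lost (adjusted p 0.0895 to 0.127) without CDD replicates 2 or 4 or any one of the ND replicates. Among 5 tested caspases and pyroptosis effectors, 1 was called lower, *Ninj1*, whose protein ruptures the membrane at the end of pyroptosis. *Ninj1* was at 5.22 ± 0.638 CPM under CDD (SD, n = 4) and 6.77 ± 0.475 CPM under ND (SD, n = 4), a log2 fold change of -0.37 (SE 0.11, edgeR's adjusted p = 0.0426), and the call was lost (adjusted p 0.0587 to 0.147) without CDD replicates 2 or 4 or ND replicates 1, 3 or 4. Among 11 tested ligands, receptors and adaptors of the IL-1 family, 1 was called higher, *Traf6*, a ubiquitin ligase gene downstream of the receptors. *Traf6* was at 46.9 ± 3.53 CPM under CDD (SD, n = 4) and 40.1 ± 1.76 CPM under ND (SD, n = 4), a log2 fold change of 0.23 (SE 0.06, edgeR's adjusted p = 0.0224), and its call was lost (adjusted p 0.0518 to 0.0954) without ND replicates 1, 3 or 4.

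Of 9 measured PYHIN genes, 4 were tested and 0 called by edgeR, with 1 at an unadjusted p-value under 0.05 and a median log2 fold change of -0.49. Of 11 tested genes of cytosolic DNA sensing, the route of interferon induction that works beside AIM2, 0 were called and 1 differed at an unadjusted p-value under 0.05, with a median of 0.0088. The largest values there were -0.35 for *Cgas*, the DNA sensor (SE 0.19), and 0.33 for *Sting1*, its partner (SE 0.17). Of 21 tested genes of the interferon response, 1 was called lower, *Ifit3*, an antiviral gene induced by interferon, with 7, 8, 10 and 9 counts in CDD and 15, 17, 23 and 25 counts in ND brains. Every CDD brain was below every ND brain, with a log2 fold change of -1.31 (SE 0.33, edgeR's adjusted p = 0.0183), and the call was lost (adjusted p 0.0795 and 0.0797) without ND replicates 3 or 4. The median of the interferon list was -0.02. Of 9 tested NF-kB and inflammatory genes, 0 were called in edgeR's test and 0 differed at an unadjusted p-value under 0.05, and the largest values were -0.32 for *Tlr9* and -0.31 for *Tlr2*, both receptor genes of innate immunity. With limma-voom, 0 genes were called in the PYHIN, DNA sensing and NF-kB lists and 0 of the 6 tested inflammasome genes other than *Aim2*. Of these 6, edgeR found 0 at an unadjusted p-value under 0.05. DESeq2 also called 0, of the 1 PYHIN, 11 DNA sensing and 5 NF-kB genes and 4 other inflammasome genes it tested.

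**Figure D4:**
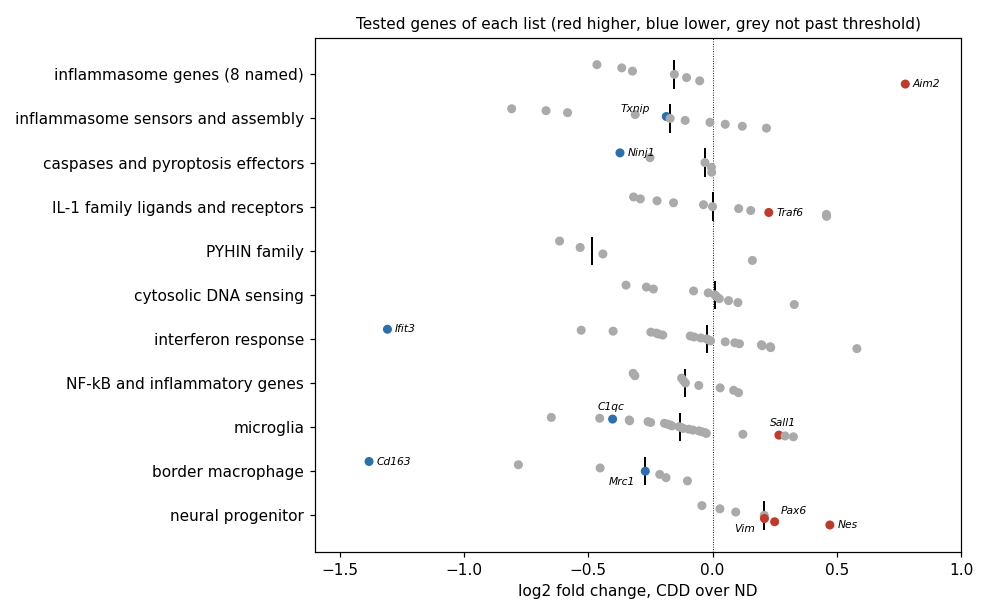
Log2 fold change of CDD over ND (x axis) of each tested gene of the inflammasome genes, the 7 wider pathway lists and 3 marker lists (y axis), with the median of each list as a black line. Red points (higher under CDD) and blue points (lower) passed an adjusted p-value of 0.05, grey points did not. *Aim2* at 0.77 stands to the right of every other gene drawn.

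Markers of the cells that could hold these RNAs were summed in each brain. Microglia were present in both diets: *Csf1r*, the receptor gene that keeps microglia alive, was at 19.0 to 22.8 CPM in CDD and 22.5 to 25.2 CPM in ND brains. The log2 fold changes of *Csf1r*, *Cx3cr1*, *P2ry12* and *C1qa* were -0.18, -0.03, -0.04 and -0.33, and none of these 4 passed the threshold. Of 24 tested microglia markers, 20 were below 0 with a median of -0.13, and 2 were called, close to the 8.83% called among all tested genes. *C1qc*, a complement gene, was lower (log2 fold change -0.40, SE 0.10, edgeR's adjusted p = 0.0173, lost without ND replicates 1 or 3 at 0.0548 and 0.0785). *Sall1*, a transcription factor gene that neural progenitors also express, was higher (log2 fold change 0.27, SE 0.06, edgeR's adjusted p = 0.00681, held in 8 of 8 fits that left out a brain). *Sall1* made up 41.9% of the summed list in CDD and 35.0% in ND brains, so the sum was also taken without it, a choice made after its level was seen. With *Sall1* the 24 markers summed to 185.0 to 198.5 CPM in CDD and 187.0 to 194.7 CPM in ND brains. Without it the other 23 markers summed to 107.2 to 113.8 CPM in CDD and 116.4 to 128.6 CPM in ND brains, lower in every CDD brain. Per 1000 CPM of all 24 markers, *Aim2* was at 37.7 to 45.5 CPM in CDD and 21.1 to 27.9 CPM in ND brains. Per 1000 CPM of the 23 markers, *Aim2* was at 68.8 to 78.5 CPM in CDD and 31.9 to 44.9 CPM in ND brains. These ratios largely repeat the difference in *Aim2* and are not separate results.

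Border macrophages, the macrophages of meninges and vessels, had 8 markers. These summed to 95.1 to 108.6 CPM in CDD and 105.5 to 122.6 CPM in ND brains, which overlapped. The largest part of the sum was *Stab1*, named after its level was seen (mean 55.7 CPM in CDD and 59.8 in ND). All 7 tested markers had a log2 fold change below 0, with a median of -0.27. In edgeR's test 5 of the 7 differed at an unadjusted p-value under 0.05, against 23.9% of all tested genes. Of the 7 tested, 2 were called lower (4.59% of all tested genes), the scavenger receptor genes *Mrc1* and *Cd163*. *Cd163* was at 0.676 ± 0.0596 CPM under CDD (SD, n = 4) and 1.76 ± 0.569 CPM under ND (SD, n = 4), a log2 fold change of -1.38 (SE 0.25, edgeR's adjusted p = 0.00310). For *Mrc1* the log2 fold change was -0.27 (SE 0.08, edgeR's adjusted p = 0.0335), lost (largest adjusted p 0.150) without CDD replicates 1, 3 or 4 or ND replicates 1, 3 or 4. Blood leukocytes were close to the limit of detection: 10 neutrophil and monocyte markers summed to 0.573 to 1.51 CPM in CDD and 0.899 to 2.08 CPM in ND brains, none had enough counts for a test, and *Ly6g* had 2 counts over the 8 brains. Lymphoid and NK markers summed to 0.581 to 0.637 CPM and 0.665 to 1.13 CPM, with 1 gene tested and 0 called by edgeR or limma-voom (0 at an unadjusted p-value under 0.05).

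Some neural progenitor markers were also higher in CDD brains. Of 7 tested, 3 were called higher, *Pax6*, *Nes* and *Vim*, which are named after their values were seen, with log2 fold changes of 0.25, 0.47 and 0.21, where 4.24% of all tested genes were called higher. The 7 markers summed to 1519 to 1678 CPM in CDD and 1385 to 1462 CPM in ND brains, which did not overlap, a ratio of the means of 1.14. That gap lay largely in *Nes* (mean 360.7 CPM in CDD and 260.1 in ND) and *Vim* (565.4 and 489.5). *Fabp7* (298.1 CPM in CDD and 307.2 in ND, log2 fold change -0.04) and *Slc1a3* (144.1 and 141.2, 0.03) were not called. Per 1000 CPM of the 7 markers *Aim2* was at 4.48 to 5.53 CPM in CDD and 2.91 to 3.57 CPM in ND brains, a ratio of 1.51. The marker sum differed less between the diets than *Aim2*, so this ratio largely repeats the difference in *Aim2*. It is not a separate result. Of the remaining lists, to be read against the same shares of 4.24% higher and 4.59% lower, 1 of 6 neuron markers was called lower (*Snap25*), 1 of 7 endothelial markers lower (*Cldn5*), 2 of 9 erythroid markers higher (*Hbb-y* and *Hba-x*), 1 of 5 choroid plexus markers higher (*Otx2*), and of 5 meningeal fibroblast markers 1 higher (*Lum*) and 2 lower (*Col1a1* and *Col1a2*). Of the 8 caudal genes 1 was tested and 0 were called by edgeR, DESeq2 or limma-voom (0 at an unadjusted p-value under 0.05). The marker genes in parentheses too were named after their values were seen. The part of any of these cell types in the level of *Aim2* was not tested.

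**Figure D5:**
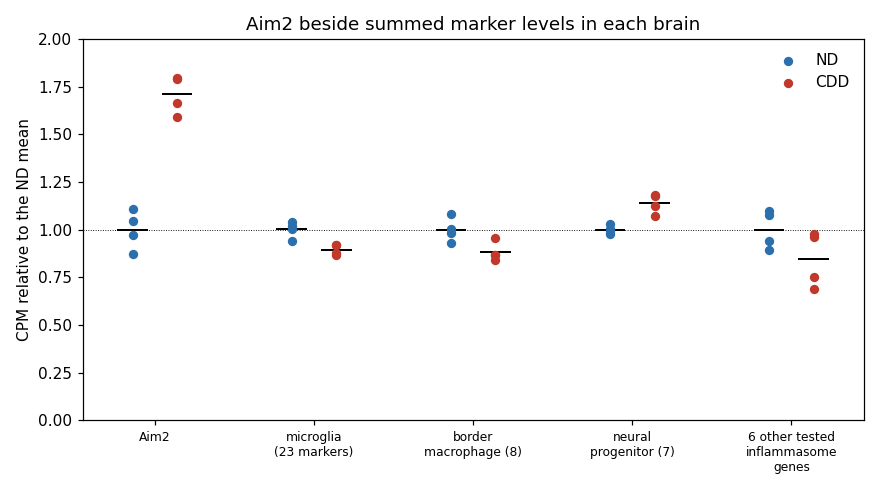
Expression of *Aim2*, of summed marker genes and of the 6 other tested inflammasome genes in each brain (CPM divided by the mean of the 4 ND brains, y axis from 0), ND in blue and CDD in red, with group means as black lines. *Aim2* in CDD brains averages 1.71 times the ND mean, the 7 neural progenitor markers 1.14 times, and the 23 microglia markers 0.895 times.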

How the data were processed

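Poly-A RNA of 8 whole E14.5 brains, 4 per maternal diet, was analysed, grouped by the diet in the labels. The submitters' processing notes name HISAT2 2.0.5, featureCounts 1.5.0-p3 and DESeq2 1.20.0. The genome build and the use of strand are not given in the sources used here. Raw counts of reads on each gene were deposited by the authors, with a normalized signal that is the count divided by a size factor per library (not used here), and FPKM values made from that signal and the gene length. Their own log2 fold changes and p-values of the diet comparison, also deposited, were not used, nor were 3 shorter lists drawn from them.

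Counts were filtered with filterByExpr of edgeR 4.0.16, scaled by TMM and compared by the quasi-likelihood test of edgeR in its robust form (maternal diet as the single term, Benjamini-Hochberg over 19367 genes, adjusted p-value under 0.05). CPM divides a count by the TMM-scaled library total. Intervals and the floor of 3 counts are at 95% and cover counting error only where they rest on counts of 1 library. FPKM order was tested by exact sign-flip permutation. Scripts ran in Python 3.11.15 (SciPy 1.17.1, NumPy 2.4.6, pandas 2.3.3, matplotlib 3.10.9) and R 4.3.3 (limma 3.58.1, DESeq2 1.42.0), and the fit was tested on simulated data. The 28 pairs of libraries differed by more than counting noise (chi-square per degree of freedom 3.76 to 30.8).

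The genes and lists were chosen with earlier results of these data known. Named genes were the 8 inflammasome genes, the pathway genes past the threshold or else those with the 2 largest log2 fold changes in a list, 6 macrophage markers and those past the threshold among microglia and border macrophages, at most 10 genes within 1 Mb of *Aim2*, and the 5 genes most like it (log2 CPM, prior count of 2). The 12 listed symbols without a row of their own were not analysed here. Promoters came from RefSeq on GRCm38.p6, gene models from GENCODE M21 on GRCm38. Alternatives were DESeq2, limma-voom, RLE and upper-quartile normalization, no filter, at least 10 counts in every brain, an adjusted p-value under 0.01, the replicate number as a block, each brain left out, a prior count of 0.5, and limma on log2(FPKM + 0.1).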

Additional observations from a re-analysis of the deposited data

Results flagged for a closer look

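Of 52 groups of 4 brains examined for a sample far from the others, 4 held one, where chance gives about 2.6 (1 in 20 groups). *Il1b* was at 0.0 CPM in ND replicate 4 against 0.0289 to 0.0313 CPM in the other ND brains, which is 0 counts against 1. The lymphoid and NK markers summed to 1.13 CPM in ND replicate 4 against 0.665 to 0.702 CPM. The endothelial markers summed to 245 CPM in CDD replicate 3 against 232 to 234 CPM in the other CDD brains. The genes of the caudal hindbrain and spinal cord summed to 92.1 CPM in CDD replicate 2 against 0.906 to 3.20 CPM, and without that brain the log2 fold change of *Aim2* was 0.79. The part of these samples in other results was not tested beyond the fits that leave out a brain.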

How the results depend on the processing

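*Aim2* was chosen with this comparison known, so its values here describe the dependence on processing and are no further test. Over 17 alternatives its log2 fold change lay between 0.71 and 0.83, and the gene was called in each. The adjusted p-values were 3.95e-09 to 0.0287, the largest with limma on the authors' FPKM. With each brain left out the log2 fold change of *Aim2* was 0.71 to 0.83, and 1 inflammasome gene was called each time. At an adjusted p-value under 0.01, 477 genes, 0 wider pathway genes and 1 microglia marker were called, against 1710, 4 and 2. Leaving out 1 brain gave 471 to 2495 genes, with 688, 471 and 615 without ND replicates 1, 3 and 4, and 0 to 7 pathway genes and 1 to 3 microglia markers. Without *Sall1*, an alternative added after seeing the data, 1 microglia marker was called. Of the 7 neighbour pairs in the order of levels, 4 to 5 differed with a brain left out, 5 without CDD replicate 3 or ND replicate 4 and 4 otherwise, when *Pycard* and *Ifi203* no longer differed. Signs turned with a brain left out for *Nlrp3* (-0.20 to 0.23), *Cx3cr1* (-0.107 to 0.0165), *P2ry12* (-0.082 to 0.00604), *Ifi207* (-0.0107 to 0.240) and *Cfap45* (-0.0225 to 0.197), none of them called. DESeq2 called 2151 genes and 5 pathway genes, no filter 2374 and 5, limma-voom 1414 and 3. The cause of these moves was not tested. The labels do not say whether the replicate numbers pair the brains, and the values do not decide it. Deviations from the diet mean correlated at 0.10, -0.13, 0.12 and 0.23 between brains of the same number, with 3 of 4 numbers best with their own. With the replicate number as a block, 1812 genes, 4 pathway genes, 2 microglia markers and 1 inflammasome gene were called, and *Aim2* was at 0.78. Depth limited *Il1b*, *Casp1* and *Nlrp3*, with at most 23 counts in a brain.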
